A study of Mus musculus with 4 samples.

Results

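Of 42 genes of mitosis and the spindle, chosen by name as cyclins, mitotic kinases, checkpoint, kinetochore, motor, anaphase and cytokinesis genes, 41 were measured, among 18194 genes in all. Cyclin B1 (Ccnb1) was not analysed here. They were compared between mouse epiblast-like tissue at day 3 of SFEBq (2 samples) and mouse embryonic stem cells at day 0 (2 samples). SFEBq is an aggregation culture in which dissociated stem cells come together quickly and float in medium without serum, and the labels place the samples of both days in this differentiation and name no cell line, genotype or added factor. Total RNA was labelled with biotin and hybridised to Affymetrix arrays, 1 per sample, so 4 arrays gave all values. Values are on a log2 scale, so a difference of 1 is a doubling and a difference is always day 3 minus day 0. Each gene was represented by its probe set, a group of short probes for 1 transcript, with the highest mean over the 4 arrays. Nothing says that replicates 1 and 2 of a day came from separate cultures, and the p-values reflect the variation between these arrays alone, possibly technical.

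Entry into mitosis is driven by the kinase Cdk1 bound to cyclins A and B. Chromosomes then attach to spindle microtubules through kinetochores, and the spindle checkpoint restrains the anaphase-promoting complex until every kinetochore is attached. That ubiquitin ligase next marks securin and cyclin B for degradation, separase splits the sister chromatids, and the central spindle positions the furrow of cytokinesis. Transcripts of most of these proteins peak in G2 and M phase, and in such promoters the cell cycle homology region (CHR), read by the MuvB complexes, and CCAAT boxes, read by NF-Y, are known elements. Mouse embryonic stem cells and the early epiblast both cycle fast.

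The arrays were alike within days (Pearson's r across genes 0.998 at day 3 and 0.9975 at day 0) and less so between days (0.9618 to 0.9619). All 7 epiblast markers were called higher at day 3 and all 10 naive stem cell markers lower, which fitted the labels. Of 14 visceral endoderm markers, an extra-embryonic cell type, 12 were called higher and 1 lower, and their mean level was 9.85 and 9.92 at day 3, against 7.27 and 7.21 at day 0. Of 10 fibroblast markers, which would mark feeder cells, 4 were called higher, with mean levels of 5.74 on each day 3 array and 5.29 on each day 0 array. The part of these other cell types in the differences below was not tested. RNA integrity was read from the Gapdh and Actb controls, as the excess of the log2 signal of the 3' end over that of the 5' end. For Gapdh it was 0.50 and 0.54 at day 3 and 0.68 and 0.36 at day 0. For Actb it was larger, at 1.23 and 1.209 at day 3 and 1.274 and 1.035 at day 0.

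Transcripts of the mitotic genes were mostly somewhat lower in epiblast-like tissue than in stem cells, and all stayed above the median level of genes on both days. Of the 41 measured, 24 fell, 3 rose and 14 were not called, the threshold being a limma p of 0.05 after Benjamini-Hochberg adjustment over all genes. Among all genes 42.3% were called, 20.9% higher and 21.4% lower. Bright genes were called more often, and of the 7399 genes within the range of level of the mitotic genes (7.77 to 13.16), 28.9% were called higher and 35.8% lower, beside 7.32% and 58.5% of the mitotic genes. The median log2 difference of the mitotic genes was -0.31, against -0.056 for the genes in that range of level and 0.011 for all genes. Their median level was 10.96 and 10.93 on the day 3 arrays and 11.19 and 11.26 on the day 0 arrays.

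The differences, read from each gene's brightest probe set, were small. The largest, -0.83, was under 2-fold, a size with which 10.2% of all genes were called. A fainter probe set of Anln differed by more than 2-fold (-1.36). By their brightest probe sets, 7 mitotic genes were called with a 1.5-fold difference, all of them lower, beside 20.4% of all genes in either direction. The largest gap between duplicates of 1 day was 0.24 and the median gap 0.053, while the standard error of a difference ran from 0.048 to 0.095. For 38 of the 41 genes the 2 days were free of overlap, 31 of these lower and 7 higher at day 3, beside 69% of all genes without overlap and 33.7% without overlap and lower. Of the 7399 genes within the mitotic genes' range of level, 6307 were without overlap, 3499 of these lower. Ccna2, Foxm1 and Mki67 were the 3 mitotic genes whose arrays overlapped. Fewer cells in G2 or mitosis and less RNA per cell cannot be told apart in such samples.

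**Figure D1:**
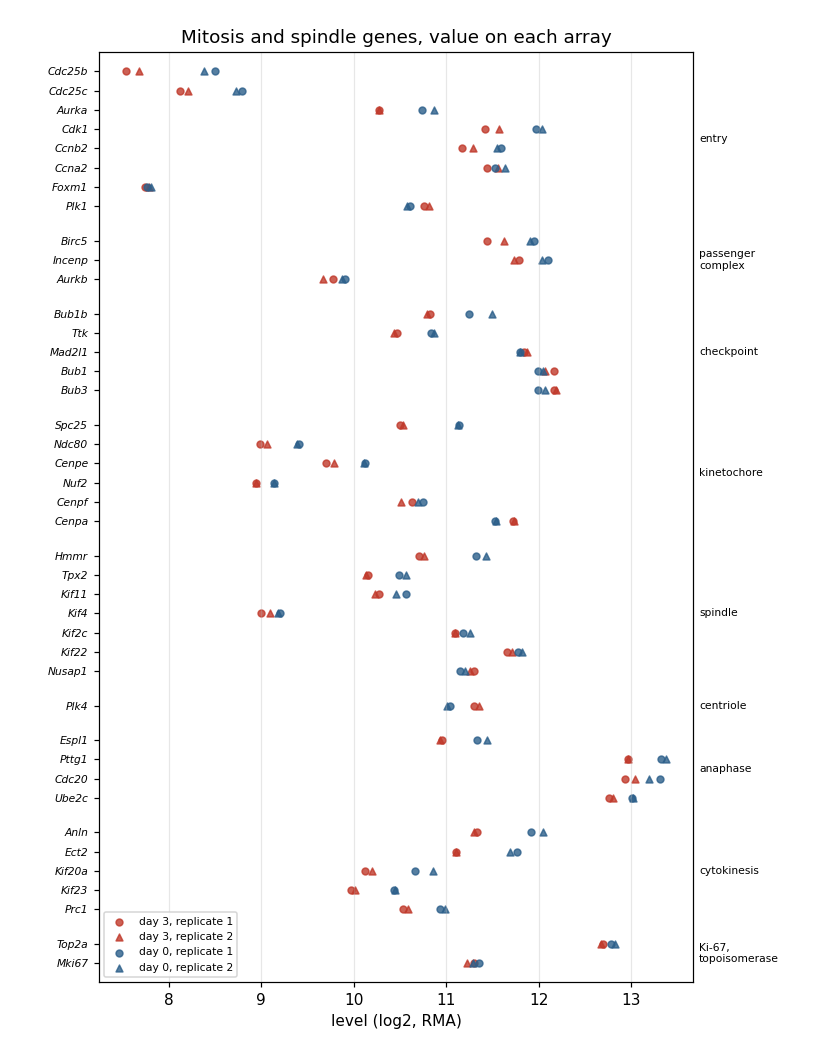
Level on the log2 scale (x axis) of each of the 41 measured genes (rows, grouped by role) on the 4 arrays, day 3 in red and day 0 in blue, circles for replicate 1 and triangles for replicate 2. For 31 genes both day 3 arrays lie to the left of both day 0 arrays, for 7 to the right.

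What these genes share beyond their role was looked for in their promoters, 250 bases before to 50 after each gene's start in RefSeq (GRCm38.p6). A window was held for 34 of the 41 measured genes. Searched on both strands were the CHR, written TTTGAA or TTCGAA, the CCAAT box, written CCAAT, and an E2F-like site, written TTTGGCG or TTTCCCG. Sites of different motifs overlapped in 51 of all 32851 windows. A CHR match was present for 27 of the 34 genes (79.4%), against 17.5% of 14453 measured genes with a window and 19.2% of all windows. Within 50 bases of the start it was present for 25 (73.5%), against 4.6% of measured genes. CCAAT boxes were found for 25 genes (73.5%), against 42% of measured genes and 37.4% of all windows. Both motifs stood together for 24 (70.6%), against 7.1% of measured genes and 7.5% of all windows. The E2F-like site was found for 2 genes, Birc5 and Nusap1 (5.9%), beside 7.8% of measured genes and 4.8% of all windows.

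Matches stood in genes of every outcome. A CHR match was found for 17 of the 20 genes with a window that fell, for 2 of the 3 that rose and for 8 of the 11 that were not called. The median log2 difference was -0.35 for the 27 genes with a match and -0.19 for the 7 without, and these medians were not tested against each other. A match describes letters in a window and is not a site shown to be used.

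The promoters of the 6 genes with a window that fell most are printed from 120 bases before to 30 after the start, 5' to 3' on the gene's strand, with CHR and CCAAT matches in capitals on either strand.
Cdc25b (chr2:131186828-131186977, + strand): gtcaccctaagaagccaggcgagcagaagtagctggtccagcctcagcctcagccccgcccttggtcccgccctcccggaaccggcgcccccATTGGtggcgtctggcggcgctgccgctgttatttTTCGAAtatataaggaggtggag
Anln (chr9:22389177-22389326, - strand): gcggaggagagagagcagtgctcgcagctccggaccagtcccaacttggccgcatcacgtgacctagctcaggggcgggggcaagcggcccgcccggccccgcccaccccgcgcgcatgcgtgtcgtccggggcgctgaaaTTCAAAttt
Hmmr (chr11:40733408-40733557, - strand): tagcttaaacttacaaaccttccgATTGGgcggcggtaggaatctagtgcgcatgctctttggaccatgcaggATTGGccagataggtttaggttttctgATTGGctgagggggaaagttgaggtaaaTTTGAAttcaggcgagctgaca
Ect2 (chr3:27153849-27153998, - strand): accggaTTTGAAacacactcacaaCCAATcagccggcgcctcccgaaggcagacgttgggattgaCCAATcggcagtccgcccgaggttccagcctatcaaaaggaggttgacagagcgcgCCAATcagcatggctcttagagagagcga
Spc25 (chr2:69206184-69206333, - strand): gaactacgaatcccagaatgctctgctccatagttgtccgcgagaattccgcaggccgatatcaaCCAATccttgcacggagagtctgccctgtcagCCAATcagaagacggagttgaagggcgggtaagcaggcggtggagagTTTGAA
Bub1b (chr2:118598091-118598240, + strand): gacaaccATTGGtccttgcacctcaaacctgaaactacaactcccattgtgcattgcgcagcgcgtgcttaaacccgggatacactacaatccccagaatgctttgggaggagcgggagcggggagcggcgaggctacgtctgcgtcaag
The CHR matches of Cdc25b, Anln, Hmmr and Spc25 lie just after the start. Ect2 has one that begins at -114 and another at 40, beyond the part printed, and Bub1b has its CHR matches outside that part. Except for Anln these windows also hold CCAAT boxes.

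The promoters of the 4 genes of anaphase onset, all of which fell, are shown for the arrangement of a CCAAT box followed by a CHR before the start.
Espl1 (chr15:102296173-102296322, + strand): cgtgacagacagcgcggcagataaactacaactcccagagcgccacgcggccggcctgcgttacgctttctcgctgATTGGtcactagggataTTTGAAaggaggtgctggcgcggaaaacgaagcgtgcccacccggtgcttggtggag
Pttg1 (chr11:43425952-43426101, - strand): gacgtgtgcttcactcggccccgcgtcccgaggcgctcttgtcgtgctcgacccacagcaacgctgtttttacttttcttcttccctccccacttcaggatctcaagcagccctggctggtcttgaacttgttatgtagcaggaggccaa
Cdc20 (chr4:118437314-118437463, - strand): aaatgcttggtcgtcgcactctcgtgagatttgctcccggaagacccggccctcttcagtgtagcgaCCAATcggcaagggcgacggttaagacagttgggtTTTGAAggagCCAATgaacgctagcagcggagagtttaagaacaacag
Ube2c (chr2:164769809-164769958, + strand): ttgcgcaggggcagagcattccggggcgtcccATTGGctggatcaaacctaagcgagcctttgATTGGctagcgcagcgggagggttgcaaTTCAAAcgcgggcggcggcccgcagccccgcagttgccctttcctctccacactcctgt
Espl1, Cdc20 and Ube2c hold this arrangement, with CHR matches that begin at -27, -18 and -29 from the start, while the Pttg1 window holds neither motif.

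The promoters of the 3 genes that rose are shown for comparison with these.
Plk1 (chr7:122159315-122159464, + strand): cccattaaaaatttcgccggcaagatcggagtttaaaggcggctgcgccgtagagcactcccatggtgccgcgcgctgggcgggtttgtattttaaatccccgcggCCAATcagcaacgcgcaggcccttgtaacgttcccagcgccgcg
Cenpa (chr5:30666766-30666915, + strand): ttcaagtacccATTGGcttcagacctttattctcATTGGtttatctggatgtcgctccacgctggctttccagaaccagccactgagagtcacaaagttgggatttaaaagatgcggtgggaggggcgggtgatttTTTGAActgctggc
Plk4 (chr3:40799831-40799980, + strand): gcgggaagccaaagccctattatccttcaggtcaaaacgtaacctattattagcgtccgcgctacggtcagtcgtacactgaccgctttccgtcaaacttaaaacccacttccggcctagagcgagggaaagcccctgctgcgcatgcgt
Cenpa has CCAAT boxes upstream and a CHR match that begins at 17 after the start, Plk1 has a CCAAT box and a CHR match at 31, beyond the part printed, and Plk4 has none of the 3 motifs in its window.

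**Figure D2:**
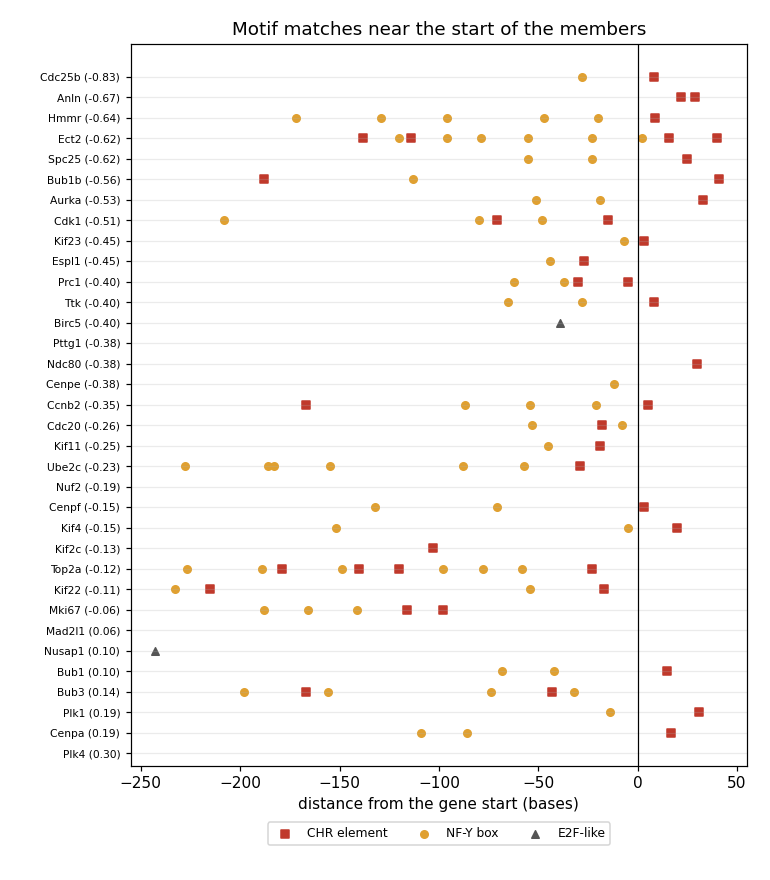
Distance in bases from the gene start (x axis) of CHR matches, NF-Y boxes (CCAAT) and E2F-like matches for the 34 measured genes with a promoter window (rows), ordered by log2 difference, which is given in brackets, from the largest fall at the top. Within 50 bases of the start 25 genes have a CHR match; genes with 2 windows show the matches of both.

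Counts by role are read beside the genes within the same range of level, 35.8% of which were called lower and 28.9% higher. Among the 8 measured genes of mitotic entry, 5 fell, 1 rose and 2 were not called. Cdc25b, a phosphatase that activates Cdk1, had the largest fall of all the mitotic genes, with 7.54 and 7.68 at day 3, against 8.50 and 8.38 at day 0 (log2 difference -0.83 ± 0.095 (SE), adjusted p = 4.1e-05). Its relative Cdc25c had 8.12 and 8.21 at day 3 and 8.79 and 8.73 at day 0 (-0.59 ± 0.084). Both phosphatase genes were among the dimmest of the mitotic genes, and on each the 2 day 3 arrays lay below the 2 day 0 arrays. Cdk1, the mitotic kinase itself, had 11.42 and 11.57 at day 3 and 11.98 and 12.04 at day 0 (-0.51 ± 0.065, adjusted p = 8.6e-05). Ccnb2, encoding cyclin B2, fell less, by 0.35, with 11.17 and 11.29 at day 3 against 11.59 and 11.55 at day 0. Ccna2, encoding cyclin A2, was not called, with 11.44 and 11.56 at day 3 and 11.53 and 11.63 at day 0, values that overlapped (-0.077 ± 0.064, adjusted p = 0.40).

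The 2 kinases of spindle assembly in this group went opposite ways. Aurka, encoding Aurora A, which matures centrosomes, had 10.27 on each day 3 array and 10.74 and 10.86 at day 0 (-0.53 ± 0.067, adjusted p = 8.0e-05). Plk1, a kinase acting from mitotic entry to cytokinesis, had 10.76 and 10.81 at day 3 and 10.61 and 10.58 at day 0 (0.19 ± 0.060, adjusted p = 0.025). The call of Plk1 was lost when day 3 replicate 1, day 3 replicate 2 or day 0 replicate 2 was left out (adjusted p = 0.079, 0.15 and 0.075), and with arrays centred on their median its difference was 0.059. Foxm1, a transcription factor of G2 and M phase genes, stood at 7.74 and 7.79 at day 3 and 7.76 and 7.81 at day 0 (-0.020 ± 0.090, adjusted p = 0.90).

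In the chromosomal passenger complex, which corrects attachments and directs cytokinesis, 2 of 3 genes fell. Birc5, encoding survivin, had 11.44 and 11.63 at day 3 and 11.95 and 11.91 at day 0 (-0.40 ± 0.068, adjusted p = 7.6e-04). Incenp, the scaffold of the complex, had 11.79 and 11.73 at day 3 and 12.10 and 12.03 at day 0 (-0.31 ± 0.055). Its kinase gene Aurkb was lower on both day 3 arrays, with 9.77 and 9.67 against 9.91 and 9.87 at day 0, and missed the threshold (-0.17 ± 0.071, adjusted p = 0.080).

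Of 5 spindle checkpoint genes 2 fell and 3 were not called. Bub1b, encoding BubR1, an inhibitor of the anaphase-promoting complex, had 10.83 and 10.80 at day 3 and 11.25 and 11.50 at day 0, the widest gap between duplicates of any mitotic gene (-0.56 ± 0.079, adjusted p = 1.8e-04). Ttk, the kinase that starts checkpoint signalling, had 10.47 and 10.43 at day 3 and 10.83 and 10.87 at day 0 (-0.40 ± 0.061). The other checkpoint genes had small positive differences. Bub3, a partner of Bub1 and BubR1, had 12.17 and 12.18 at day 3 and 11.99 and 12.07 at day 0 (0.14 ± 0.054, adjusted p = 0.056), and it was called without day 0 replicate 2 (0.18, adjusted p = 0.039). The kinase gene Bub1 differed by 0.10 ± 0.057 (adjusted p = 0.18) and Mad2l1, encoding the checkpoint effector Mad2, by 0.057 ± 0.053 (adjusted p = 0.45).

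Of 6 centromere and kinetochore genes, 3 fell, 1 rose and 2 were not called. The Ndc80 complex binds microtubules at the outer kinetochore, and its measured genes were lower on every day 3 array than on any day 0 array. Spc25 had 10.50 and 10.53 at day 3 and 11.14 and 11.12 at day 0 (-0.62 ± 0.059, adjusted p = 1.0e-05). Ndc80 had 8.99 and 9.06 at day 3 and 9.41 and 9.39 at day 0 (-0.38 ± 0.073). Nuf2 had 8.94 on each day 3 array and 9.13 and 9.14 at day 0, and was not called (-0.19 ± 0.073, adjusted p = 0.059). No test between genes of the complex was made.

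Cenpe, a kinesin that moves chromosomes to the spindle's middle, fell by 0.38, with 9.70 and 9.78 at day 3 against 10.12 on each day 0 array. Cenpf, a large kinetochore protein gene, had a difference of -0.15 ± 0.066 (adjusted p = 0.10). Cenpa, the histone H3 variant that marks the centromere, rose, with 11.72 and 11.73 at day 3 and 11.52 and 11.54 at day 0 (0.19 ± 0.054, adjusted p = 0.013). It was no longer called when either day 3 array was left out (replicate 1, adjusted p = 0.067; replicate 2, adjusted p = 0.081), and with centred arrays the difference was 0.060. Its other probe sets, at 4.11 and 3.62, lay below the arrays' first quartile of about 4.3 and were not called.

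Spindle motors and microtubule proteins gave 3 falls among 7 genes, and the other 4 were not called. Hmmr, a microtubule protein of spindle assembly, had 10.70 and 10.76 at day 3 and 11.32 and 11.43 at day 0 (-0.64 ± 0.064, adjusted p = 1.4e-05). Tpx2, which activates Aurora A on microtubules, had 10.16 and 10.14 at day 3 and 10.49 and 10.56 at day 0 (-0.38 ± 0.064). Neither gene's duplicates differed by as much as the days did. The Hmmr call was lost without probe sets matching several transcripts (-0.54, adjusted p = 0.067), where only a dim one, at a level of 5.61, remained. The other further probe sets of Hmmr were each called lower in the fit over all probe sets (-0.82, -0.64 and -0.77). Kif11, the motor that pushes spindle poles apart, fell by 0.25 ± 0.067, with 10.28 and 10.23 at day 3 against 10.56 and 10.45 at day 0 (adjusted p = 0.010). That call was lost when day 3 replicate 1, day 3 replicate 2 or day 0 replicate 1 was omitted (adjusted p = 0.054, 0.093 and 0.053).

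The other motor genes were not called. The chromokinesin genes Kif4 and Kif22, whose motors ride on chromosome arms, differed by -0.15 ± 0.076 and -0.11 ± 0.055, and Kif2c, a depolymerase of microtubule ends, by -0.13 ± 0.058. The fainter probe sets of Kif22 were called lower, at -0.29 and -0.38, as was one of Kif2c, at -0.30. Those of Kif11 were called lower as well, at -0.37 and -0.52. Nusap1, a microtubule bundling protein gene, had a positive difference of 0.10 ± 0.058 (adjusted p = 0.20).

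Plk4, the kinase that starts centriole duplication, had the largest rise among the mitotic genes. It stood at 11.30 and 11.36 at day 3 and 11.05 and 11.01 at day 0 (0.30 ± 0.058, adjusted p = 0.0017). Its other probe sets had differences of 0.20 and 0.086, which were not called, and without probe sets matching several transcripts the call was lost (adjusted p = 0.080).

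All 4 genes of anaphase onset fell. Espl1, encoding separase, the protease that cuts cohesin, had 10.96 and 10.93 at day 3 and 11.34 and 11.45 at day 0 (-0.45 ± 0.061, adjusted p = 1.6e-04). Pttg1, encoding securin, the inhibitor of separase, had 12.96 and 12.97 at day 3 and 13.32 and 13.38 at day 0 (-0.38 ± 0.048, adjusted p = 7.8e-05). Its other probe sets, at levels of 11.37 and 6.98, had larger falls (-0.66 and -0.54) and were called lower. Protease and inhibitor were both lower on every day 3 array than on any day 0 array. Cdc20, the activator of the anaphase-promoting complex, had 12.93 and 13.04 at day 3 and 13.31 and 13.19 at day 0 (-0.26 ± 0.059, adjusted p = 0.0039), a call lost without day 3 replicate 1 (-0.21, adjusted p = 0.067). Ube2c, the ubiquitin-conjugating enzyme that works with it, had 12.76 and 12.81 at day 3 and 13.01 and 13.02 at day 0 (-0.23 ± 0.048, adjusted p = 0.0028). Pttg1, Cdc20 and Ube2c were the 3 brightest of the mitotic genes, brighter than 98.6% to 99.0% of all genes, a range in which array signals can be compressed.

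All 5 genes of the central spindle and cytokinesis fell, with a median log2 difference of -0.60. Anln, encoding anillin, a scaffold of the contractile ring, had 11.33 and 11.30 at day 3 and 11.92 and 12.04 at day 0 (-0.67 ± 0.061, adjusted p = 7.3e-06). Ect2, the exchange factor that activates RhoA at the furrow, had 11.11 and 11.10 at day 3 and 11.77 and 11.69 at day 0 (-0.62 ± 0.057, adjusted p = 7.5e-06). With Cdc25b and Hmmr these were the 4 largest falls among the mitotic genes. Kif20a, a motor that carries the passenger complex to the central spindle, had 10.12 and 10.20 at day 3 and 10.66 and 10.85 at day 0 (-0.60 ± 0.076). Kif23, the motor of the centralspindlin complex, fell by 0.45 ± 0.064, and Prc1, which bundles antiparallel microtubules, fell by 0.40 ± 0.061. For each of the 5 genes every day 3 array was below every day 0 array.

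The general proliferation genes were not called, though with arrays centred on their median both were called lower. Mki67, encoding the Ki-67 antigen that coats mitotic chromosomes, had 11.31 and 11.23 at day 3 and 11.36 and 11.29 at day 0, values that overlapped (-0.058 ± 0.060, adjusted p = 0.50). Top2a, the topoisomerase that untangles chromosomes, had 12.70 and 12.67 at day 3 and 12.78 and 12.83 at day 0 (-0.12 ± 0.049, adjusted p = 0.076). A fainter Top2a probe set, at a level of 7.66, was called lower in the fit over all probe sets (-0.80, adjusted p = 4.3e-04), so the probe sets of this gene disagreed in size.

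**Figure D3:**
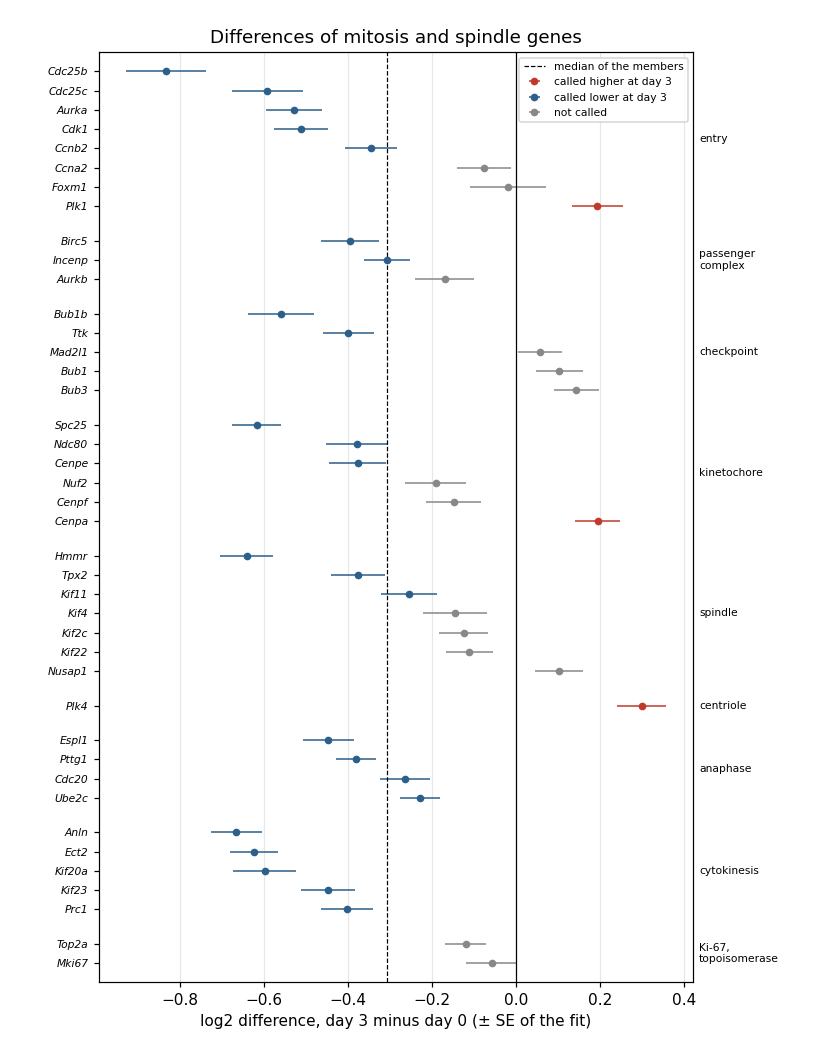
Log2 difference, day 3 minus day 0, with the standard error of the fit as bars (x axis), for the 41 measured genes grouped by role. Blue genes were called lower (24), red higher (3) and grey not called (14); the dashed line is the median of -0.31, and all genes of anaphase onset and of cytokinesis lie left of 0.

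Fainter probe sets of the same genes were compared next. For 27 of the genes 52 further probe sets were on the arrays, of which 26 were called lower and 26 were not called in a limma fit over all probe sets, where 36.1% were called, 17.1% higher and 19% lower. Their median difference was -0.31. Of the 26 above the median level of genes, 19 were called lower, and 24 had the sign of the probe set kept. Those that went the other way belonged to Bub3 (-0.10) and Foxm1 (0.11), and neither was called. Dim probe sets of Bub1 (-0.43) and Bub3 (-0.61) were called lower although the kept ones had positive differences. The kept probe set was marked as matching several transcripts for 21 genes. Some of its signal can then come from other transcripts, of the same gene or of other genes, which the pooled marks do not tell apart.

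**Figure D4:**
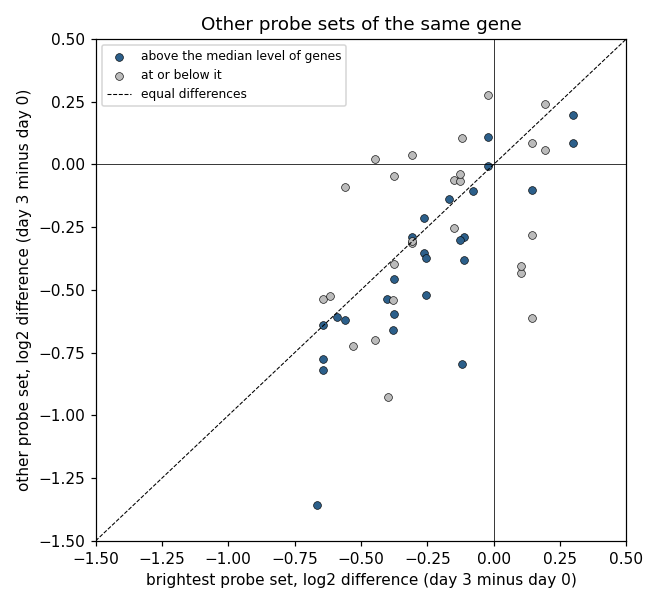
Log2 difference, day 3 minus day 0, of each of the 52 further probe sets (y axis) against that of the brightest probe set of the same gene (x axis), blue above and grey at or below the median level of genes. Of the 26 blue points, 24 have the same sign on both axes; the dashed line marks equal differences.

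Other genes of cell division were counted in the same fit, where 21.4% of all genes were called lower and 20.9% higher. Among genes within the mitotic genes' range of level these shares were 35.8% and 28.9%. Of 34 other spindle and cytokinesis genes, 23 fell, 2 rose and 9 were not called, with a median of -0.41. Cep55, a midbody protein of abscission, fell by 1.93 ± 0.063 (9.72 at day 3, 11.66 at day 0), more than any of the 41 genes, and the kinesin gene Kif14 was also called lower. Its level of 3.90 at day 3, against 4.84 at day 0, lay below the arrays' first quartile and was not separated from background, so the size of its fall is not known. Clasp1 (0.34) and Ckap5 (0.22), genes of proteins at microtubule plus ends, rose. Among 31 other centromere and kinetochore genes, 14 fell and 3 rose (median -0.22), with the largest falls for the inner kinetochore genes Cenpm (-1.85) and Cenpt (-1.28), and the largest rises for Zwint (0.52) and Cenpk (0.40).

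Of 16 genes of the anaphase-promoting complex and its partners, 7 fell and 3 rose (median -0.12). The subunit gene Anapc10 fell by 1.20 and Ube2s, which extends ubiquitin chains, by 0.52, while Anapc16 (0.34) and Anapc1 (0.20) rose. Condensin and cohesin gave 9 falls and 2 rises among 21 genes (median -0.11), the largest falls being those of Sgo2a (-0.84) and Sgo1 (-0.55), protectors of centromeric cohesin. Stag2, a cohesin subunit gene, rose by 1.56, and Ncaph2, of condensin, by 0.19. In the list of 17 centrosome and centriole genes 5 fell and 2 rose (median -0.17), among them Pcnt (-0.84) and Cep192 (-0.64), scaffolds of the centrosome, and Cep97 (0.70) and Nedd1 (0.31). The shares called lower in these lists, in turn 43.8%, 42.9% and 29.4%, lay near or below the 35.8% of genes within the mitotic genes' range of level.

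Regulators of G2 and of mitotic transcription were mixed, with 10 of 26 lower, 6 higher and 10 not called (median -0.094). Gadd45a, a stress-induced inhibitor of Cdk1, fell by 1.73 ± 0.067, and Mybl2, the partner of MuvB at mitotic promoters, by 1.36 ± 0.069, while the repressor genes E2f6 (0.69) and E2f7 (0.64) rose. Of 37 genes of DNA replication 23 fell and 2 rose, with a median of -0.29 near that of the mitotic genes (-0.31). Orc1 (-0.88) and Cdc45 (-0.87), needed for the loading and start of the replicative helicase, fell most, and the kinase gene Cdc7 (0.25) and Orc3 (0.18) rose. No test compared these lists with each other.

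**Figure D5:**
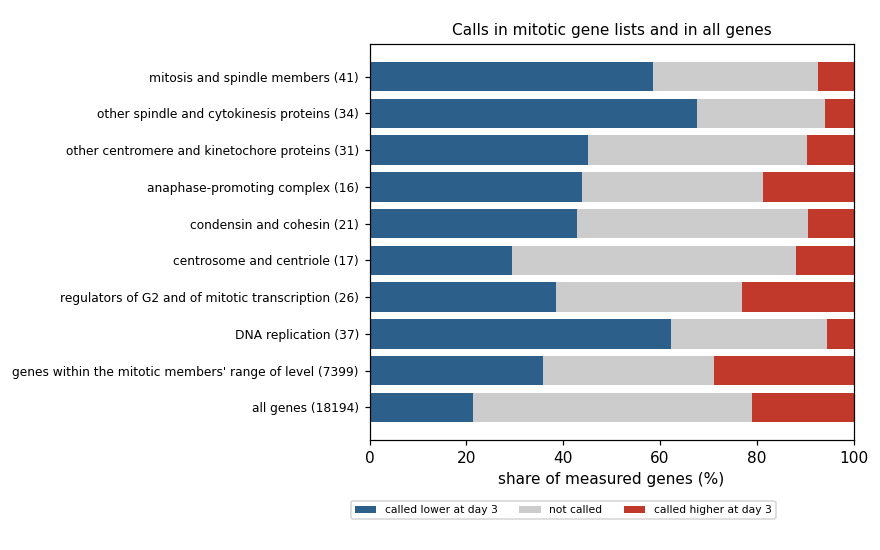
Share of measured genes (x axis, %) called lower (blue), not called (grey) and called higher (red) at day 3, for the 41 mitotic genes, for other lists of cell division and for all genes, with the number of genes in brackets. The mitotic genes have 58.5% called lower and 7.32% higher, against 35.8% and 28.9% of genes within their range of level and 21.4% and 20.9% of all genes.

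The scale mattered for the small differences. Centring each array on the median of its genes lowered every log2 difference by 0.13, so that the median of all genes was -0.12 and 15.75% of them were called higher and 31.07% lower. With centred arrays 33 mitotic genes were called lower and 1, Plk4, higher, and the differences of Bub1, Mad2l1 and Nusap1 turned to -0.031, -0.077 and -0.032.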

How the data were processed

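The deposited table held log2 values of 45101 probe sets on 4 arrays, made with RMA (background correction, quantile normalization and summary of probes) in R 2.13.0, per the submitters' processing notes; other settings and the build were not given in the sources. RMA cannot show a change in total RNA and compresses dim signals, and no detection calls were used. The 34958 probe sets with 1 annotated symbol gave 18194 genes, each taken from its brightest probe set; 932 with several symbols and 9211 with none were left out. Differences were fitted with limma 3.58.1 in R 4.3.3 (lmFit, eBayes with an intensity trend, no covariate), two-sided, with Benjamini-Hochberg adjustment over all genes. Residual degrees of freedom were 2, and the shared variance added 8.017. The number of arrays limits the precision. Simulated data for this comparison with 18194 genes gave back 2% of 50 genes shifted by 0.2 (log2), 22% at 0.3, 70% at 0.5 and 100% at 1. In the data 42.3% of genes were called, far more than 50, which loosens the adjusted threshold. The simulated shares therefore do not measure what could be called here. Alternatives were other variance models, normalization, centring, a level filter, other probe sets, a replicate block, each array left out and a stricter threshold. Every mitotic gene is named, and of each further list the 2 largest called rises and falls; genes and lists were chosen with earlier results of these data known. Promoters came from RefSeq (GRCm38.p6). Protein sequences were not used here.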

Additional observations from a re-analysis of the deposited data

How the results depend on the processing

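The median difference of the mitotic genes stayed between -0.44 (arrays centred on their median) and -0.27 in every setting, and 20 to 33 of them were called lower in every setting but one. The exception was an unmoderated test per gene, with 2 degrees of freedom, which called 5 of them lower and 1 higher, and 1064 genes higher and 1084 lower among all. Of the 24 genes that fell, 20 had the same call and direction in each setting that kept them, apart from that test. Hmmr, Kif11, Cdc20 and Ube2c did not. None of the 14 uncalled genes kept both its call and its direction throughout. With centred arrays 9 of these were called lower, among them Mki67 (-0.19, adjusted p = 0.025) and Top2a (-0.25, adjusted p = 0.0015). Kif11, Cdc20 and Ube2c lost their calls without the intensity trend (adjusted p = 0.057, 0.062 and 0.064), as did Plk1 (0.11) and Cenpa (0.10). None of the 3 rises held throughout: 1 rise was counted without the intensity trend, with centred arrays, without probe sets matching several transcripts and at an adjusted p under 0.01. With 1 array left out 1 to 3 rises and 22 to 24 falls were counted, and the median was -0.34 to -0.27. Only uncalled genes turned their sign, and none was called after turning. With centred arrays these were Bub1 (-0.031), Mad2l1 (-0.077) and Nusap1 (-0.032). With probe sets of a gene averaged they were Foxm1 (0.090), Bub1 (-0.16), Bub3 (-0.15) and Nusap1 (-0.15). Without probe sets matching several transcripts Bub3 was at -0.10, and with 1 array left out Foxm1 ranged from -0.045 to 0.0043, being at 0.0013 without day 3 replicate 1. The replicate block gave 24 falls and 3 rises, the same call for each of the 41 genes; same-numbered arrays did not deviate together (r = -0.017 across genes), so the numbers were not taken to pair the samples. The causes of these shifts were not tested.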
